A study of Mus musculus with 6 samples.

Results

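Neurexins, neuroligins and cerebellins are partners that hold the 2 sides of a synapse together, and 8 of their genes were compared between ribosome-bound RNA of Pnoc-Cre cells and total RNA of the mouse preoptic area. The 8 genes (Nrxn2, Nrxn3, Nlgn1, Nlgn2, Nlgn3, Cbln1, Cbln2 and Cbln4) were taken by their symbols from a deposited table of 27884 genes, and all 8 passed the filter on low counts that left 18640 genes for testing. IP libraries hold RNA bound to ribosomes that carried an EGFP tag and were pulled down with an antibody against GFP, and input libraries hold total RNA from the same tissue. Each of the 3 IP and 3 input libraries came from a pool of 3 female NuTRAP::Pnoc-Cre mice aged 17 to 18 weeks. Same-numbered IP and input libraries came from the same pool, and the main test did not use this pairing. Both groups thus carry the tag allele and the Cre driver. Pnoc is the gene of the nociceptin precursor, and the comparison asks which transcripts are held by ribosomes of the tagged cells more or less than in the tissue at large. Cre acts permanently, so that cells that expressed Pnoc-Cre only earlier in life can be tagged too, and pull-downs from mice without Cre were not analysed here.

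Neurexins are presynaptic cell-surface proteins. Neuroligins sit on the facing postsynaptic membrane and bind neurexins directly, with Nlgn1 known mainly from excitatory synapses, Nlgn2 from inhibitory synapses and Nlgn3 from both kinds. Cerebellins are secreted proteins, some of which bridge presynaptic neurexins and postsynaptic delta-type glutamate receptors. They were first described at cerebellar synapses and are made by many forebrain neurons as well.

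Libraries held between 48204567 and 51380354 counts in IP and between 49068467 and 53056642 counts in input. Pnoc was at 47.7, 43.1 and 41.15 CPM (counts relative to TMM-scaled library size) in IP replicates 1, 2 and 3, against 7.515, 10.98 and 13.2 CPM in input, a log2 fold change of 2.06 ± 0.22 (SE; adjusted p = 0.000472 by the quasi-likelihood test of edgeR). Of 15 pan-neuronal marker genes 7 were higher and 1 lower in IP, with a median log2 fold change of 0.56, and of 11 GABAergic markers 6 were higher. Of 8 glutamatergic markers 0 were called, also at an unadjusted p under 0.05, and of 8 striatal markers 1 was higher and 2 were lower. All 12 astrocyte, 10 oligodendrocyte and 10 microglial markers were lower, as were 8 of 9 oligodendrocyte precursor and 7 of 8 endothelial markers. Summed astrocyte markers ran from 872 to 1058 CPM in IP and from 3446 to 4018 CPM in input, and no marker of these lists was at 0 in every library. Precursor markers summed to between 131.5 and 173 CPM in IP and between 535 and 625 CPM in input. In such bulk libraries fewer cells of a type and less RNA per cell cannot be told apart. IP holds ribosome-bound RNA and input total RNA. A difference in expression between tagged cells and tissue thus cannot be told apart from a difference in ribosome binding. The part that glial RNA has in the values below was not tested.

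Of the 8 genes, 4 were higher in IP at an adjusted p under 0.05 (Nlgn3, Nlgn2, Cbln1 and Nrxn3) and 0 were lower in edgeR's quasi-likelihood test (0 in DESeq2, and 1 of the 8, Nlgn1, was lower at an unadjusted p under 0.05). Of all genes tested, 12.9% were called higher and 17.1% lower, or 30.0% in either direction. The median log2 fold change of the 8 was 0.52, beside -0.067 for all genes tested and 0.56 for the pan-neuronal markers. For 6 of the 8 genes all IP libraries lay above all input libraries, and for 0 of the 8 did they lie below, beside 21.7% and 26.0% of the genes tested. The other 2, Nrxn2 and Nlgn1, had overlapping groups, and 47.7% of all genes tested had groups that did not overlap. With the replicate as a block, 5 were higher and 1 was lower, beside 15.2% and 19.4% of all genes tested. Without both libraries of replicate 1, a pool whose input held more cortical and fewer thalamic transcripts than the others, 5 were higher. That fit called 10.75% of all genes higher. Without both libraries of replicate 2 the number was 3, and without those of replicate 3 it was 1 (Nlgn3), in fits that called 7.90% and 0.705% of all genes higher. The number higher was 2 without IP replicate 2, without IP replicate 3 or without input replicate 3, and Nlgn2 and Nlgn3 were the genes called in each of these fits. Of all genes, these fits called 7.5%, 7.2% and 7.5% higher, in that order.

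**Figure D1:**
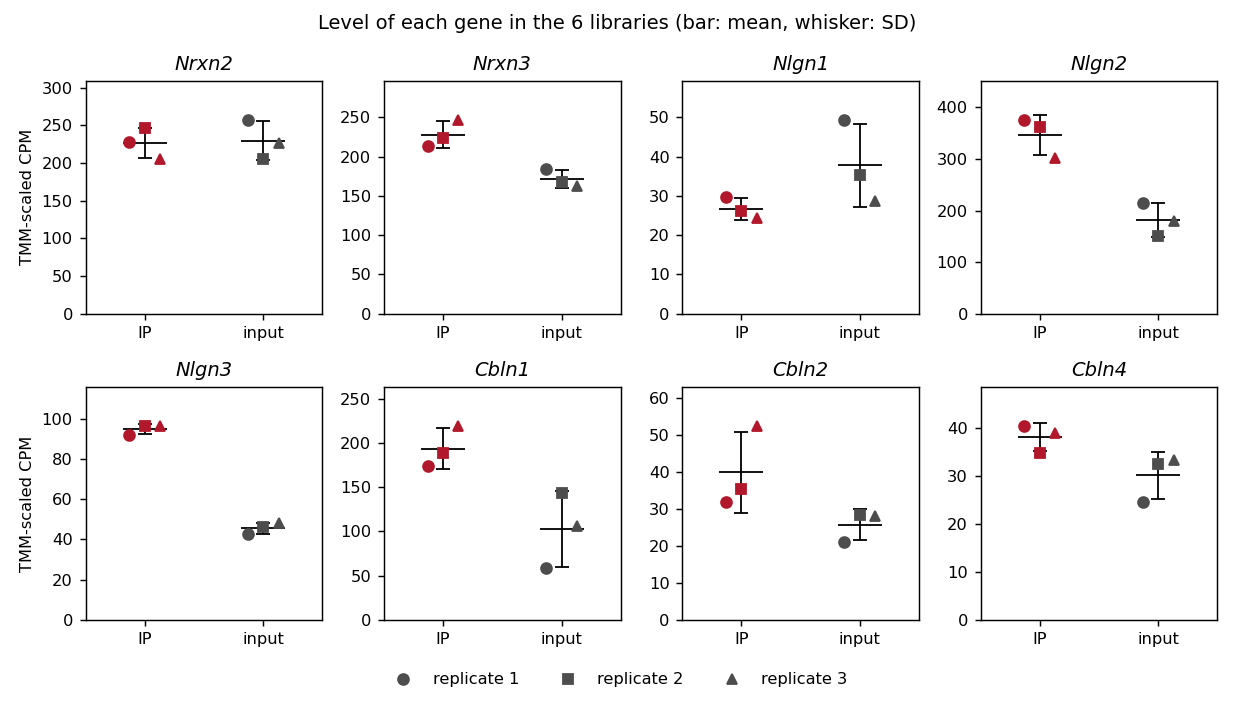
Level of each of the 8 genes in TMM-scaled CPM in the IP (red, left) and input (grey, right) libraries, with 1 symbol per replicate, the mean as a bar and the SD as a whisker. The groups overlap for Nrxn2 and Nlgn1 and are separate for the other 6, with Nlgn3 showing the tightest groups.

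Among the neuroligins, Nlgn3 rose 2.08-fold and Nlgn2 rose 1.91-fold in IP, and Nlgn1 did not pass the test. Nlgn3 (ENSMUSG00000031302, chromosome X, 100342774 to 100369569, plus strand, mm39) was at 91.8, 96.3 and 96.4 CPM in IP replicates 1, 2 and 3, against 42.7, 45.9 and 48.2 CPM in input. The lowest IP library was well above the highest input library, and the spread within each group was small. Its log2 fold change of 1.06 ± 0.12 (SE) passed edgeR's quasi-likelihood test at an adjusted p of 0.000625, and stayed past the threshold in each alternative tried. The difference within replicates 1, 2 and 3 was 1.10, 1.07 and 0.9998 on the log2 scale, a narrow range. A long noncoding gene on the same strand, Gm21986, shares 3823 of the 9296 annotated exon bases of Nlgn3, and it was credited with at most 0.488% as many counts in any library. How reads on the shared bases were counted is not given in the sources used here. The low count of Gm21986 thus does not bound the effect of the overlap on Nlgn3.

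Nlgn2 (ENSMUSG00000051790, chromosome 11, 69713948 to 69728610, minus strand, mm39), the neuroligin of inhibitory synapses, was at 376, 362 and 302 CPM in IP, against 215, 150.2 and 179 CPM in input. All IP libraries were above all input libraries, with the lowest IP value in replicate 3 and the lowest input value in replicate 2. It rose by 0.93 ± 0.16 on the log2 scale (SE; adjusted p = 0.00413 by the quasi-likelihood test of edgeR). With both libraries of replicate 3 left out the log2 fold change was 1.02 and the adjusted p was 0.070 (edgeR).

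Nlgn1 (ENSMUSG00000063887, chromosome 3, 25480379 to 26386609, minus strand, mm39), the neuroligin of excitatory synapses, was at 29.8, 26.2 and 24.3 CPM in IP, against 49.4, 35.3 and 28.7 CPM in input. IP replicate 1 lay above input replicate 3, so that the groups overlapped, and the highest value was in input replicate 1. The log2 fold change was -0.50 ± 0.21 (SE; adjusted p = 0.107 by the quasi-likelihood test of edgeR). It was -0.47 with an adjusted p of 0.0475 with the replicate as a block. After correction for transcript length and GC content it was 0.09 (adjusted p = 0.703, edgeR), so that no direction can be given. The longest Nlgn1 transcript has a GC content of 38.9%, the lowest of the 8 genes, against 60.7% for Nlgn2 and 49.5% for Nlgn3. An antisense noncoding gene, A830092H15Rik, overlaps 1229 of its 14109 exon bases and had at most 2.07% as many counts as Nlgn1 in any library.

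The promoters of Nlgn2 and Nlgn1 are shown as a description, and any link to the fold changes was not tested. The joint correction for length and GC used each gene's longest transcript and not the promoter. With that correction the value of Nlgn1 turned its sign and that of Nlgn2 did not. The separate parts of length and base composition in this were not tested, and Nlgn1 also has the longest transcript of the 8 genes. The RefSeq promoter table, on build GRCm38.p6, holds windows from 250 bases before to 50 bases after a start for 4 of the 8 genes (Nlgn1, Nlgn2, Nrxn3 and Cbln4) in 7 entries. The window of Nlgn2 (chr11:69837735-69838034, minus strand) is 68.7% GC, and those of the upstream and downstream Nlgn1 starts (chr3:26331860-26332159 and chr3:26153937-26154236, minus strand) are 55.7% and 44.7% GC, beside a median of 52.7% over 32851 windows. Capitals mark GGGCGG or its reverse complement CCGCCC, the GC box, sought on both strands, which is present in 35.7% of all windows. It occurs 3 times in the Nlgn2 window and 0 times in both Nlgn1 windows. The Cbln4 window, not printed here, holds it 2 times, and the Nrxn3 windows hold it 0, 1 and 0 times.
Nlgn2: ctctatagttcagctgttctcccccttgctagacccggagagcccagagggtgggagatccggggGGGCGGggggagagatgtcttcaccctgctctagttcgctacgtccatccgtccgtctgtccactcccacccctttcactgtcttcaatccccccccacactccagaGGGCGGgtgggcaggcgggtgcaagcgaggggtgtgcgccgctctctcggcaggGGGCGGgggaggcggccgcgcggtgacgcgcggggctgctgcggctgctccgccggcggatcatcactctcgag
Nlgn1, upstream start: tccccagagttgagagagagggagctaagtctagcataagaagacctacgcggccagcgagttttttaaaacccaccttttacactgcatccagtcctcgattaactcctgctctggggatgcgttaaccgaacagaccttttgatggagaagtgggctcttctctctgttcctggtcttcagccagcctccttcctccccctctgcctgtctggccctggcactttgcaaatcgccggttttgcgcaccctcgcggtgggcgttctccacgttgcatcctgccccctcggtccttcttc
Nlgn1, downstream start: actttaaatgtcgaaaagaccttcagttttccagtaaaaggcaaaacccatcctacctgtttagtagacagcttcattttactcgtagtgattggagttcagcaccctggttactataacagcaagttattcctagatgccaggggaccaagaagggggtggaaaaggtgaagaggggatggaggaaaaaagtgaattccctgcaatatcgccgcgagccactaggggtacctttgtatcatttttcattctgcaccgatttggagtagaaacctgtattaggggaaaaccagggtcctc

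Ratios of counts within a library do not depend on how libraries are scaled against each other, and 7 such ratios were taken, 1 for the neurexins and 3 each for the neuroligins and cerebellins. The exact permutation test of 3 against 3 libraries cannot give a two-sided p below 0.1. The log2 ratio of Nlgn2 to Nlgn1 was 3.66, 3.79 and 3.63 in IP replicates 1, 2 and 3, against 2.12, 2.09 and 2.64 in input. Every IP library was above every input library, by 1.41 on average (exact permutation p = 0.1, 0.233 after Benjamini-Hochberg adjustment over the 7). After correction for length and GC the difference was 0.70. The log2 ratio of Nlgn3 to Nlgn1 was 1.62, 1.88 and 1.99 in IP, against -0.21, 0.38 and 0.75 in input, again without overlap, and differed by 1.52 (exact permutation p = 0.1, adjusted 0.233), or by 1.09 after the correction. Nlgn2 to Nlgn3 gave overlapping groups, at 1.86 ± 0.20 in IP and 1.98 ± 0.32 in input (SD, n = 3, exact permutation p = 0.7).

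**Figure D2:**
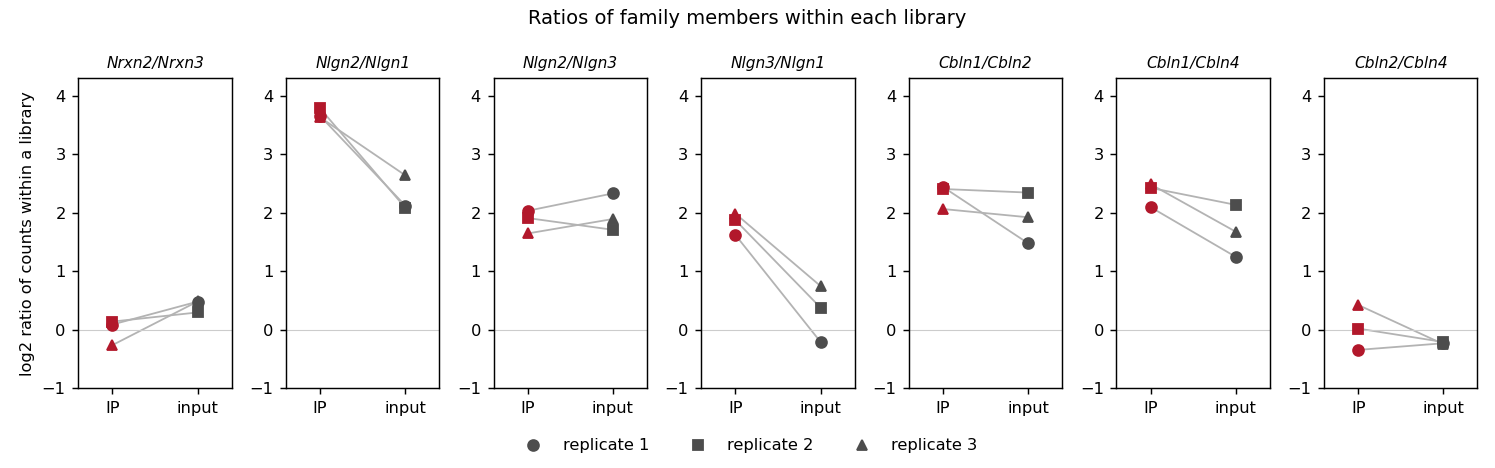
Log2 ratio of the counts of 2 genes of a family within each library, with IP left, input right and a line joining the libraries of a replicate. Both ratios over Nlgn1 and the ratio Nrxn2/Nrxn3 separate IP from input without overlap, and the other 4 ratios overlap.

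In deposited FPKM (fragments relative to gene length and library size), which allows levels of different genes to be set side by side, Nlgn2 made up 83.0% ± 1.70 of the summed neuroligin level in IP and 80.0% ± 2.31 in input (SD, n = 3). Nlgn1 made up 2.77% ± 0.14 in IP and 7.17% ± 1.38 in input. Its share lay between 2.61% and 2.88% in the IP libraries and between 5.58% and 8.09% in the input libraries, without overlap. Nlgn3 made up 14.3% ± 1.70 in IP and 12.8% ± 2.40 in input, with overlapping groups. The summed neuroligin level was 76.5, 75.0 and 64.7 FPKM in IP, against 44.1, 33.0 and 37.8 FPKM in input.

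Of the 2 neurexins, Nrxn3 rose 1.33-fold in IP and Nrxn2 did not pass the test. Nrxn3 (ENSMUSG00000066392, chromosome 12, 88689646 to 90301709, plus strand, mm39) was at 214, 223.5 and 247 CPM in IP, against 184, 167 and 162 CPM in input. No IP library fell below an input library. Its log2 fold change was 0.41 ± 0.12 (SE; adjusted p = 0.0315 by the quasi-likelihood test of edgeR). It did not pass without IP replicate 1, 2 or 3 (0.46, 0.43 and 0.36, adjusted p = 0.063, 0.079 and 0.111, edgeR) or without input replicate 3 (0.42, adjusted p = 0.093, edgeR). With library totals in place of TMM scaling, which moves the median of all genes by -0.105, it was 0.31 (adjusted p = 0.083, edgeR).

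Nrxn2 (ENSMUSG00000033768, chromosome 19, 6468761 to 6594199, plus strand, mm39) was at 227, 246 and 206 CPM in IP, against 257, 205 and 227 CPM in input. The groups covered nearly the same range, and the log2 fold change was -0.02 ± 0.13 (SE; adjusted p = 0.92 by the quasi-likelihood test of edgeR). Its sign changed with the scaling, so that no direction can be given. The log2 ratio of Nrxn2 to Nrxn3 was 0.09, 0.14 and -0.26 in IP, against 0.48, 0.30 and 0.48 in input. The groups were separate and differed by -0.43 (exact permutation p = 0.1, adjusted 0.233), or by -0.71 after correction for length and GC. In FPKM, Nrxn3 made up 52.3% ± 3.77 of the sum of these 2 genes in IP and 44.9% ± 1.85 in input (SD, n = 3). Nrxn2 shares 682 of its 13815 exon bases with the opposite-strand gene Slc22a12, which had at most 0.42% as many counts as Nrxn2 in any library. It shares 207 with the opposite-strand noncoding gene Gm14964, which had at most 0.938%.

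All 3 cerebellins had their IP libraries above their input libraries, and Cbln1 was the one that passed the threshold. Cbln1 (ENSMUSG00000031654, chromosome 8, 88195033 to 88199237, minus strand, mm39), which encodes the cerebellin of cerebellar granule cells, was at 173.5, 188 and 219 CPM in IP, against 58.4, 143 and 106.5 CPM in input. The input libraries differed more than 2-fold among themselves, with replicate 1 the lowest. The log2 fold change was 0.91 ± 0.29 (SE; adjusted p = 0.0429 by the quasi-likelihood test of edgeR), a 1.88-fold difference, and it was 1.001 with an adjusted p of 0.00374 with the block. It did not pass without IP replicate 1, 2 or 3 (0.99, 0.94 and 0.82, adjusted p = 0.064, 0.095 and 0.135, edgeR) or without input replicate 3 (0.97, adjusted p = 0.116, edgeR), and it was 0.64 without input replicate 1 and 1.26 without input replicate 2. Within replicates 1, 2 and 3 the log2 difference was 1.57, 0.39 and 1.04. An antisense noncoding gene, Gm19872, overlaps 591 of its 3061 exon bases, and whether counting used strand is not given in the sources used here.

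Cbln2 (ENSMUSG00000024647, chromosome 18, 86729235 to 86736408, plus strand, mm39) was at 31.9, 35.5 and 52.4 CPM in IP, against 21.0, 28.2 and 28.1 CPM in input. IP replicate 3 stood above the other IP libraries. On the log2 scale IP stood 0.63 ± 0.22 above input (SE; adjusted p = 0.0591 by the quasi-likelihood test of edgeR), and 0.61 above it with the replicate as a block (adjusted p = 0.0168). DESeq2 gave an adjusted p of 0.0242 at 0.66, and without IP replicate 1 edgeR gave an adjusted p of 0.0466 at 0.77. With length and GC corrected for, Cbln2 was at 0.79 (adjusted p = 0.0414, edgeR). In that same fit Cbln1 did not pass, at 0.72 (adjusted p = 0.069, edgeR). The correction used a Cbln2 transcript of 6305 bases, while the deposited length of the gene is 2894 bases. The corrected value of Cbln2 thus depends on the annotation. Without IP replicate 3 the log2 fold change was 0.39, with an adjusted p of 0.198 (edgeR).

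Cbln4 (ENSMUSG00000067578, chromosome 2, 171878153 to 171885386, minus strand, mm39) was at 40.5, 34.98 and 39.0 CPM in IP, against 24.6, 32.6 and 33.3 CPM in input. The groups did not overlap, but the gap between IP replicate 2 and input replicate 3 was small. The log2 fold change was 0.34 ± 0.16 (SE; adjusted p = 0.144 by the quasi-likelihood test of edgeR). In none of the alternatives tried was the adjusted p of Cbln4 under 0.05.

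Within libraries, the log2 ratio of Cbln1 to Cbln4 was 2.34 ± 0.21 in IP and 1.69 ± 0.44 in input (SD, n = 3, exact permutation p = 0.2, adjusted 0.28), and that of Cbln1 to Cbln2 was 2.31 ± 0.21 in IP and 1.92 ± 0.43 in input (exact permutation p = 0.2, adjusted 0.28). The groups overlapped in both, while within replicates 1, 2 and 3 IP was above input by 0.85, 0.29 and 0.81 for Cbln1 to Cbln4 and by 0.96, 0.061 and 0.14 for Cbln1 to Cbln2 (exact sign-flip permutation p = 0.25 each, the smallest that 3 pairs allow). Cbln1 to Cbln2 differed by 0.39 between IP and input, or by -0.063 after correction for length and GC, a value that depends on the annotation of Cbln2. For Cbln2 to Cbln4 the ratio was 0.03 ± 0.39 in IP and -0.23 ± 0.02 in input (exact permutation p = 0.4, adjusted 0.467). Cbln1 made up 70.3% ± 1.30 of the summed cerebellin FPKM in IP and 62.2% ± 7.11 in input.

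**Figure D3:**
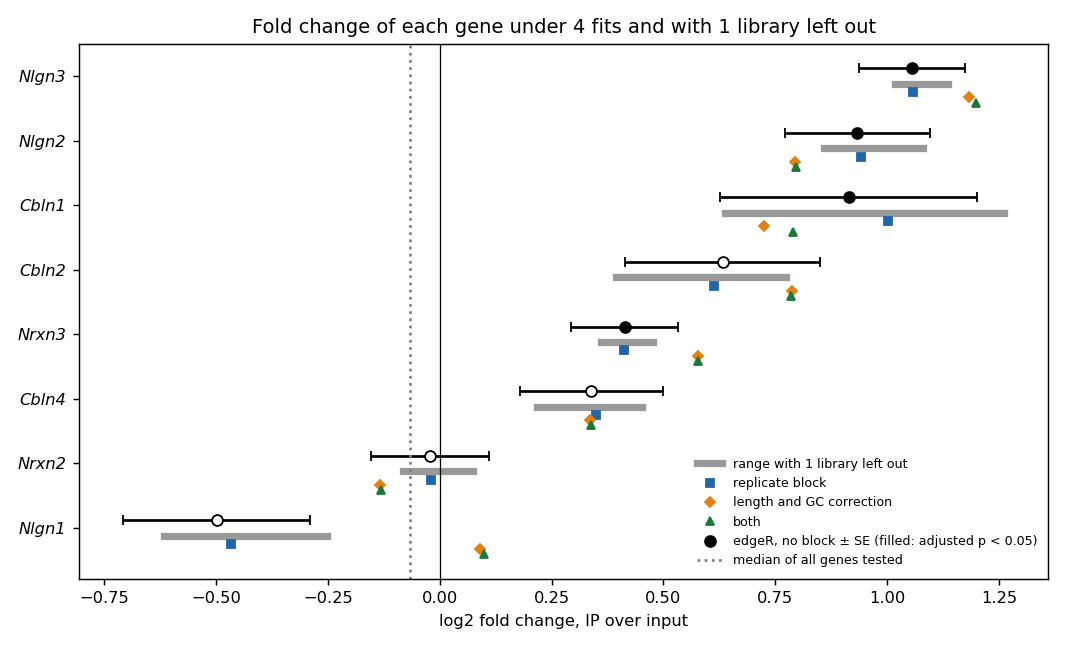
Log2 fold change of each gene, IP over input, from edgeR without a block (circles with SE, filled where the adjusted p is under 0.05), with a replicate block, with length and GC correction and with both, and the range with any 1 library left out (grey bars). The dotted line is the median of all genes tested. Nlgn3 and Nlgn2 lie between 0.79 and 1.198 in the fits shown, and Nlgn1 is at -0.50 without and 0.09 with the correction.

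Levels per length spanned a wide range. In IP, Cbln1 was at 63.8 ± 8.06 and Nlgn2 at 59.9 ± 6.52 FPKM (SD, n = 3), and their libraries overlapped. Nrxn3 at 18.0 ± 1.44, Nrxn2 at 16.4 ± 1.45, Cbln2 at 13.8 ± 3.85 and Cbln4 at 13.1 ± 0.94 FPKM followed, each overlapping the next. Nlgn3 at 10.2 ± 0.35 FPKM was below all of these in every library, and Nlgn1 at 1.99 ± 0.19 FPKM was the lowest. The deposited length of Cbln2 is 2894 bases while GENCODE M39 gives it 6305 exon bases, so that its level per length, its place in this order and its share of the cerebellins depend on the annotation. The level of Nlgn3 and its share of the neuroligins may depend on how reads on bases shared with Gm21986 were counted. In input the order was Cbln1 at 33.2 ± 14.0, Nlgn2 at 30.7 ± 5.23, Nrxn2 at 16.3 ± 1.71, Nrxn3 at 13.2 ± 0.76, Cbln4 at 10.2 ± 1.73, Cbln2 at 8.73 ± 1.48, Nlgn3 at 4.82 ± 0.34 and Nlgn1 at 2.76 ± 0.74 FPKM. There only Cbln1 and Nlgn2, and Cbln4 and Cbln2, overlapped as neighbours. Nrxn3 and Nrxn2 thus stood in opposite order in IP and input, with overlap in IP.

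Transcripts of neighbouring brain regions varied between the pools of tissue, and Cbln1 and Nlgn1 are shown beside them. The summed level of 7 thalamic markers was 821, 2490 and 1526 CPM in IP replicates 1, 2 and 3, against 374, 1472 and 1048 CPM in input. Replicate 1 was the lowest in both groups, and so was Cbln1 in replicate 1. Of these 7 markers 1, Calb2, was called higher and 0 lower. The summed level of 7 cortical excitatory markers was 101, 251 and 111 CPM in IP, against 639, 150.2 and 87.3 CPM in input, with 0 of 7 called in either direction by edgeR, also at an unadjusted p under 0.05. Input replicate 1 had the highest cortical sum and also the highest Nlgn1 level. In IP the cortical sum was highest in replicate 2 and Nlgn1 in replicate 1, at 29.8 CPM. The thalamic sum in IP was highest in replicate 2 and Cbln1 in replicate 3, at 219 CPM. Input replicate 1 was also the highest input library for Nlgn2, Nrxn2 and Nrxn3, and the lowest for Nlgn3, Cbln2 and Cbln4. Without both libraries of replicate 1, the log2 fold change was 0.71 for Cbln1 (adjusted p = 0.0201, edgeR) and -0.34 for Nlgn1 (adjusted p = 0.195, edgeR). What part neighbouring tissue has in the values of Cbln1 and Nlgn1 was not tested.

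**Figure D4:**
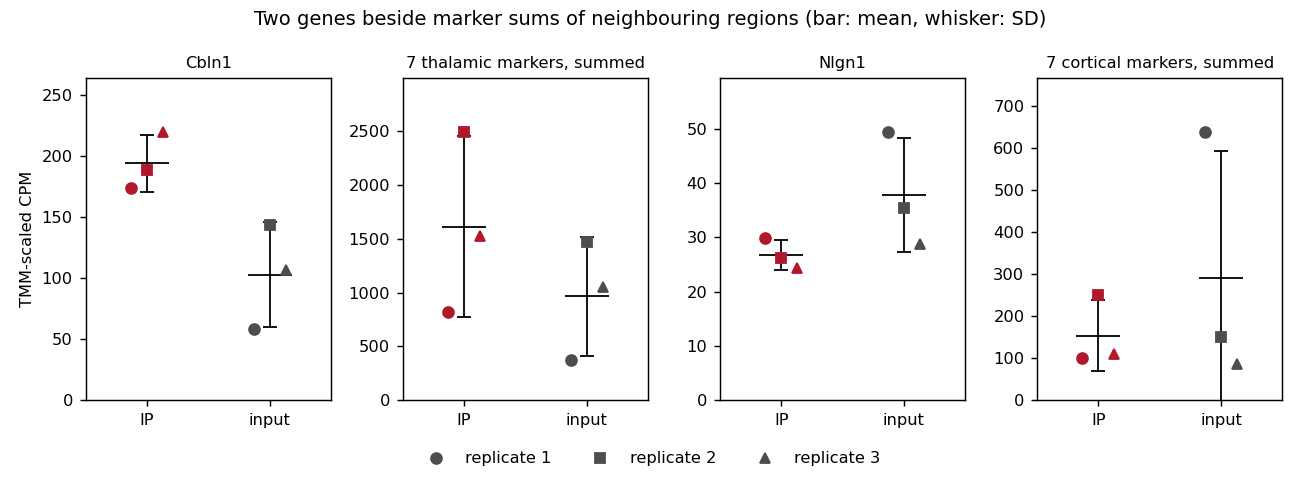
TMM-scaled CPM of Cbln1, of the sum of 7 thalamic markers, of Nlgn1 and of the sum of 7 cortical markers in the IP (red, left) and input (grey, right) libraries, with the mean as a bar and the SD as a whisker. Input replicate 1 (circle) is the lowest for Cbln1 and the thalamic sum and the highest for Nlgn1 and the cortical sum. In IP the highest replicate differs between Cbln1 and the thalamic sum, and between Nlgn1 and the cortical sum.

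Over 5 lists of related adhesion genes, 6 of 53 tested genes were higher in IP (11.3%) and 11 were lower (20.8%), beside 12.9% and 17.1% of all genes tested. Among 8 regulators and postsynaptic binding partners of neuroligins, 3 were higher and 3 lower in IP, with a median log2 fold change of -0.40. Lhfpl4, a membrane protein that links neuroligin 2 to GABA-A receptors, averaged 220.5 ± 3.03 CPM in IP and 118.5 ± 27.0 CPM in input (SD, n = 3). It rose by 0.90 ± 0.17 on the log2 scale (SE, adjusted p = 0.00672, edgeR). Gphn, the gene of gephyrin, the scaffold of inhibitory synapses, was at 42.0 ± 9.21 CPM in IP and 76.5 ± 8.65 CPM in input (SD, n = 3). It fell by 0.86 on the log2 scale (SE 0.19, adjusted p = 0.0102, edgeR), or by 0.42 once length and GC were corrected for (adjusted p = 0.114, edgeR). Mdga1 and Mdga2 encode surface proteins that bind neuroligins and block their contact with neurexins. They differed in sign, Mdga1 at 0.61 ± 0.14 (adjusted p = 0.0147) and Mdga2 at -0.80 ± 0.17 (SE, adjusted p = 0.0086, edgeR), and Mdga2 was at -0.46 after length and GC correction. Mdga1 did not pass without IP replicate 1 (0.50, adjusted p = 0.062, edgeR).

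The next 2 called partners were chosen after their values were seen. Dlg4, the gene of the excitatory scaffold PSD-95, which binds the tail of neuroligins, stood at 0.46 ± 0.15 (SE, adjusted p = 0.0434, edgeR) and kept its call only without input replicate 1 among the fits with 1 library left out (otherwise adjusted p between 0.055 and 0.107, edgeR). Igsf9b, an adhesion protein of inhibitory synapses, stood at -1.19 ± 0.34 (SE, adjusted p = 0.0306, edgeR), was at 51.2 CPM in input replicate 1 against 20.0 and 24.6 CPM in the other input libraries, and was at -0.55 (adjusted p = 0.079, edgeR) without both libraries of replicate 1. It did not pass without IP replicate 1, 2 or 3 or input replicate 3 (adjusted p between 0.051 and 0.097, edgeR).

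Of 16 other extracellular neurexin ligands tested, 0 were higher and 3 lower in edgeR's test, and 2 were higher at an unadjusted p under 0.05. DESeq2 called 2 higher, as did edgeR with the replicate block, in fits that called 13.3% and 15.2% of all genes higher. C1ql3, a secreted C1q-like protein that is a relative of the cerebellins, was at 6.17 ± 0.53 CPM in IP and 16.8 ± 6.35 CPM in input (SD, n = 3), at a log2 difference of -1.44 ± 0.27 (SE, adjusted p = 0.00591, edgeR). Dag1, which encodes dystroglycan, stood at -0.87 ± 0.19 (SE, adjusted p = 0.0101, edgeR). Lrrtm2, a postsynaptic protein of excitatory synapses that was named after its value was seen, stood at -0.71 ± 0.16 (SE, adjusted p = 0.0141, edgeR), and at -0.22 (adjusted p = 0.371, edgeR) with length and GC corrected for, and did not pass without IP replicate 1 (-0.59, adjusted p = 0.053, edgeR). The list's median was 0.08.

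Among 6 family relatives and receptors of cerebellins, 1 was lower and 0 were higher in edgeR's test (0 were higher at an unadjusted p under 0.05 and 0 were called either way in DESeq2), and the median was -0.15. Neo1, the gene of the netrin receptor neogenin and listed here as a cerebellin receptor, stood at -0.44 ± 0.14 (SE, adjusted p = 0.0408, edgeR). It kept its call only without input replicate 2 among the fits with 1 library left out, the others giving an adjusted p between 0.069 and 0.191 (edgeR). Grid1, a delta-type glutamate receptor that binds cerebellins, was looked up after the list's counts were seen. Grid1 was at 68.3 ± 11.02 CPM in IP and 55.8 ± 4.78 CPM in input (SD, n = 3). It did not pass, with a log2 fold change of 0.29 ± 0.15 (SE, adjusted p = 0.185, edgeR).

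Of 8 cytosolic partners of neurexins, 2 were higher and 1 lower, with a median of 0.02. Apba1, which encodes the adaptor Mint1, stood at 0.45 ± 0.12 (SE, adjusted p = 0.0223, edgeR), and did not pass with length and GC corrected for (0.36, adjusted p = 0.063) or with library totals as the scaling (0.34, adjusted p = 0.059, edgeR). Lin7b and Lin7c, which encode adaptors of the complex of CASK and Mint1, stood at 0.58 ± 0.17 and -0.61 ± 0.18 (SE, adjusted p = 0.0315 and 0.0331, edgeR), and at 0.11 and -0.15 with length and GC corrected for (adjusted p = 0.686 and 0.511, edgeR). Without IP replicate 1, IP replicate 2 or input replicate 3, 0 of the 8 were called in either direction. Of all genes, these fits called between 7.5% and 8.2% higher and between 10.5% and 13.1% lower. Of 15 genes of the LAR-type phosphatase system, which forms contacts beside the neurexins, 1 was higher and 3 were lower, with a median of -0.25. Ptprd, a presynaptic receptor phosphatase, was at 45.4 ± 9.08 CPM in IP and 101 ± 4.93 CPM in input (SD, n = 3), at a log2 difference of -1.16 ± 0.17 (SE, adjusted p = 0.00197, edgeR). Il1rap, one of its binding partners, stood at -1.97 ± 0.35 (SE, adjusted p = 0.0044, edgeR), and Slitrk2, a postsynaptic adhesion protein named after its value was seen, at -1.63 ± 0.30 (SE, adjusted p = 0.00527, edgeR). Lrfn4, another postsynaptic adhesion protein of the system, stood at 0.64 ± 0.18 (SE, adjusted p = 0.0306, edgeR) and did not pass without IP replicate 1, 2 or 3 or input replicate 3 (adjusted p between 0.056 and 0.116, edgeR). With the replicate as a block 5 of these 15 were lower, beside 19.4% of all genes tested.

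**Figure D5:**
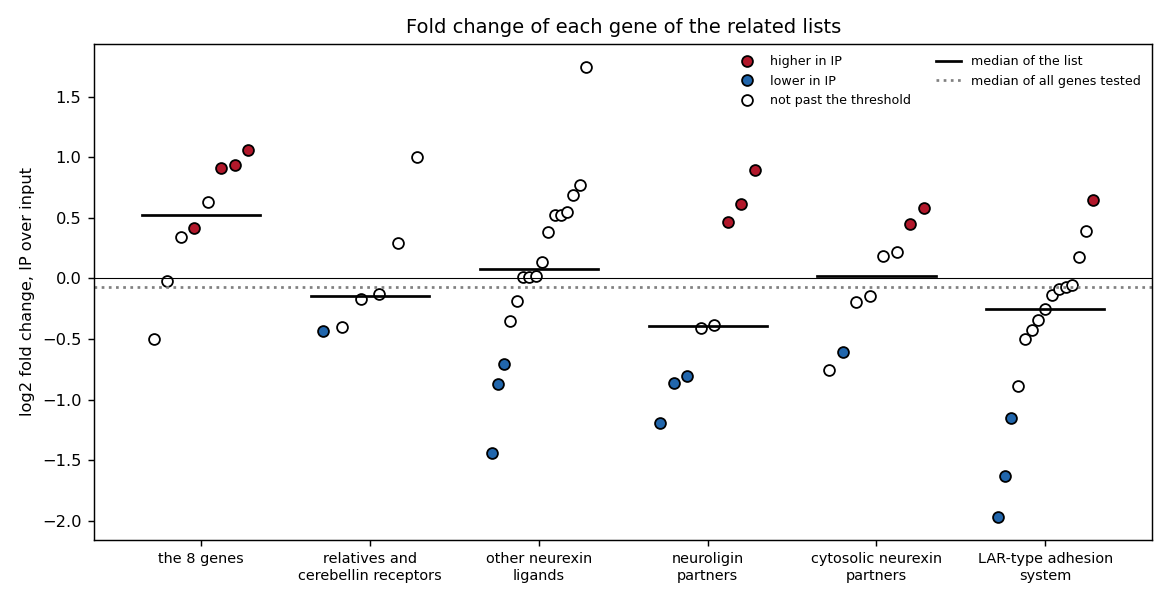
Log2 fold change, IP over input, of every tested gene of the 8 and of the related lists, with genes called higher in IP in red, called lower in blue and not past the threshold in white. Black bars are list medians, from 0.52 for the 8 genes to -0.40 for the neuroligin partners, and the dotted line is the median of all genes tested at -0.067.

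Genes with a profile most like each of the 8 were found among 9990 protein-coding genes with a mean of at least 3 log2 CPM, as those with the smallest root mean square difference of mean-centred log2 CPM over the 6 libraries. Nearest to Nlgn3 were Nelfb, Nkiras1 and Pex14 (differences of 0.044, 0.045 and 0.047), and nearest to Nlgn2 were Pus1, Scn2b and Pex6 (0.072, 0.091 and 0.092). Nearest to Nlgn1 were Fam171b, Slc39a10 and Mib1 (0.046, 0.067 and 0.085). Nearest to Nrxn3 were Ubac2, Rab12 and Csnk2a2 (0.035, 0.040 and 0.042), and nearest to Nrxn2 were Nol8, Ipo8 and AU040320 (0.041, 0.042 and 0.043). For Cbln1 they were Rpl21, Dpysl2 and Selenom (0.057, 0.075 and 0.078), of which Rpl21 has near-identical copies that can share reads. For Cbln2 they were Fstl5, Cep43 and Rabl2 (0.083, 0.095 and 0.112), and for Cbln4 Cd200, Rps6ka6 and Agpat4 (0.032, 0.047 and 0.048). None of the 8 was among the nearest 3 of another.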

How the data were processed

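Per the labels' protocols, poly(A)-selected RNA of 3 IP and 3 input libraries was sequenced. The tools are HISAT2, featureCounts and DESeq2 and the build is mm39, per the submitters' processing notes. Their versions and the strand setting are not given in the sources used here. The deposited table holds read counts per gene made by the authors without normalization. It also holds a normalized signal (the authors' counts over a size factor per library) and FPKM (the authors' counts over gene length and depth), of which FPKM served to compare genes. The authors' deposited log2 fold changes and p-values are not reported, and gene coordinates and lengths are those of the table.

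Counts were tested with edgeR 4.0.16 in R 4.3.3 (quasi-likelihood test, TMM scaling, filterByExpr, group as factor, two-sided, Benjamini-Hochberg over 18640 genes, threshold 0.05), after a test of the code on simulated data. The SE is the size of the log2 fold change over the root of its F statistic. Alternatives were DESeq2 1.42.0, other scalings and filters, a replicate block, each library or pool left out, and offsets from splines (4 degrees of freedom) of the length and GC of each gene's longest GENCODE M39 transcript, known for 27577 of 27884 genes. The correction of the family ratios was added after seeing the data.

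Same-numbered libraries come from the same pool, per the series' design text, and are paired. Their deviations from the group means correlated at 0.246, 0.133 and 0.092, against -0.202 to 0.083 for other pairs. Replicates are pools of 3 animals, so that p-values measure the spread between pools. Counts carry no molecular identifiers. Named genes follow a rule (the 8 genes, up to 2 called in each direction per list, 3 nearest profiles), with exceptions marked. The 8 genes and the lists were chosen with earlier results of these data known.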

Additional observations from a re-analysis of the deposited data

How the results depend on the processing

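Depth was alike in the 6 libraries and limits none of the 8 genes, each at 1085 counts or more in every library. The number of the 8 genes higher in IP, 4 as reported, was 2 with library totals as the scaling, between 2 and 4 with 1 library left out and 1 (Nlgn3) without both libraries of replicate 3. Of all genes, the fit with library totals called 9.3% higher, and those with 1 library left out called between 7.2% and 13.5% higher. The number lower was 0 in each of these and 1 (Nlgn1) with the replicate block. The sign of Nrxn2, not called in any fit, turned in DESeq2 (0.0075), with RLE scaling (0.0069) and without both libraries of replicate 1 (0.065) or replicate 3 (0.035), and it ran from -0.081 to 0.074 with 1 library left out. The sign of Nlgn1 turned with length and GC correction, at 0.091 without and 0.099 with the replicate block. For Nlgn2 to Nlgn3, the difference in log2 ratio between IP and input ran from -0.249 to 0.062 with 1 library left out. For Cbln1 to Cbln2 that difference was -0.063 with length and GC correction without the block, a value that depends on the annotation of Cbln2. The causes were not tested. Differences of ratios within same-numbered pairs equal those reported, at a smallest possible sign-flip p of 0.25. Cbln1 lost its call with upper-quartile scaling, library totals and length and GC correction without the block (adjusted p = 0.053, 0.066 and 0.069, edgeR), and the block changed no call of the 8 genes other than those of Cbln2 and Nlgn1. Without both libraries of replicate 3, 0 genes of the 5 related lists were higher and 2 (LAR-type system) were lower, in a fit that called 0.705% of all genes higher and 3.93% lower.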
